A study of Mus musculus with 6 samples.

Results

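The genes described here are the Slit ligands Slit1, Slit2 and Slit3, the Robo receptors Robo1, Robo2 and Robo3, and the GTPase activating proteins of the Slit-Robo pathway (srGAPs) Srgap1, Srgap2 and Srgap3. They were chosen by name, as the rows of a table of read counts whose gene identifiers the annotation of mouse genome build GRCm38 gives to these symbols, and they are 9 of the 53421 genes in the table. The libraries came from cerebellar granule cells (GCs) of C57BL/6 pups at postnatal day 8, dissociated and cultured in medium for neurons. All cultures received a lentivirus and puromycin selection, so the controls carry a virus and the selection too. The short hairpin RNA of the virus was directed against Ythdf2 (shYthdf2, 3 libraries numbered 1, 2 and 4) or was a control (shCtrl, 3 libraries with the same numbers), and 1 hairpin against Ythdf2 was sequenced. YTHDF2 is a reader of the RNA modification m6A. The study asked how the m6A readers YTHDF1 and YTHDF2 regulate the growth of GC axons. The sequencing of RNA after knockdown (KD) of YTHDF2 was part of it. RNA was taken from whole cultures, in which fewer cells of a type and less RNA per cell cannot be told apart.

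Slits are large secreted proteins that bind Robo receptors on axons and migrating neurons, and the bound receptor usually repels the growth cone. Robos have no enzyme activity of their own and work through proteins that bind their inner domain. srGAPs are among these, and they turn off small GTPases and bend the membrane through an F-BAR domain. For the cerebellum, Slit2 is known to turn migrating GCs away in culture, and Robo1 and Robo2 to steer the neurons of the precerebellar nuclei.

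Sample titles and library names contradict each other on which group is which, and the names were followed here together with the number of the hairpin. If the titles were right, every direction given below would be inverted. Ythdf2 had 501, 402 and 501 normalized counts (counts scaled to a common library size by the TMM method) in shYthdf2 libraries 1, 2 and 4, and 618, 841 and 628 in shCtrl. The groups did not overlap, and the log2 fold change was -0.57 with a standard error (SE) of 0.16 (adjusted p = 0.125 by the Benjamini-Hochberg method, from the quasi-likelihood test of edgeR). The libraries held 17246821 to 21546595 counts. Replicate 2 stood apart from replicates 1 and 4 in both groups. Replicates 1 and 4 differed from each other by a chi-square of 3.34 (shYthdf2) and 4.64 (shCtrl) per degree of freedom, and replicate 2 differed from them by 32.9 to 54.8. The GC markers Zic1, Neurod1 and Gabra6 were found in every library, with at least 408 normalized counts. Markers of oligodendrocytes, astroglia, microglia and fibroblasts were found in every library as well.

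The Slit genes carry a microRNA, so its sequence is shown with the sites that match it among the members. In the annotation, the hairpin of Mir218-1 lies in intron 14 of Slit2 and that of Mir218-2 in intron 14 of Slit3, on the same strand as the host gene. Both give the same mature miR-218-5p, at chr5:48223966-48223986 and chr11:35616840-35616860 of GRCm38. Its seed, bases 2 to 8, is in capitals below (sequence from RefSeq).
mmu-miR-218-5p: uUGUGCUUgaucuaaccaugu
The letters that pair with this seed, AAGCACA, were searched on the transcript strand in the 3′ untranslated region (3′UTR) of 1 GENCODE transcript for each gene. They were found in 6 of the 9 members, all of them other than Slit1, Slit3 and Srgap1. The match is in capitals in these sites, with the flanking bases of the transcript in lower case.
Robo1: tttttttggttttaaAAGCACAa
Robo2: attttatttggtgatAAGCACAa
Robo2: agtcacggcagacccAAGCACAg
Srgap2: attgggaaaaatccaAAGCACAa
Slit2: cgccaatactagcagAAGCACAt
The site of Robo1 is at chr16:73045333-73045355, on the plus strand. Those of Robo2 are at chr16:73895358-73895380 and chr16:73893032-73893054, on the minus strand, and that of Srgap2 is at chr1:131286521-131286543, on the minus strand. The match of Slit2 is the first of 2 in its 3′UTR, at chr5:48304528-48304550 on the plus strand. The same letters are in 13.6% of the 3′UTRs of 20877 genes, and in 37.3% and 38.1% of those as long as the 3′UTRs of Robo2 and Srgap2 (within 20% of the length). At the lengths of Slit2, Robo1, Robo3 and Srgap3 the share was 33.0%, 18.0%, 3.0% and 42.3%. For Slit1, Slit3 and Srgap1, which had no match, it was 11.1%, 3.3% and 39.8%. The 2 miRNA genes had 0 counts in every library, and RNA as short as a mature miRNA is usually lost in library kits of the kind used.

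YTHDF2 binds m6A, which is often found near stop codons in a motif that includes the letters GGACT. These letters were searched on the transcript strand within 200 bases on either side of the stop codon. They were found in 4 of the 9 members, against 38.7% of the 17704 genes with such a window. In the 2 sites that follow the match is in capitals. The printed run of Srgap2 is at chr1:131289274-131289294 and that of Srgap1 at chr10:121785240-121785260, both on the minus strand and in the 3′UTR.
Srgap2: tagcttggGGACTcagttgaa
Srgap1: gatgtctgGGACTagctaaat
Slit2 and Srgap3 held the other matches. No site of m6A was measured in these libraries, and a match of letters is no site.

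Srgap3, Srgap2 and Robo2 had the highest levels among the members and the ligands had low ones. Levels of different genes are compared here per length, as CPM (normalized counts divided by library size) per kilobase of exon. Srgap3 had the highest level in the shCtrl libraries, at 52.4 ± 0.891 (SD, n = 3). By the mean over the libraries of both groups, it was above 94.7% of the genes tested. In shCtrl, Srgap2 followed at 31.5 ± 3.89 and Robo2 at 24.1 ± 5.64. The libraries of these latter genes overlapped in both groups, so their order is within the spread. Srgap1 (6.11 ± 1.35) and Robo1 (3.98 ± 0.202) came next in shCtrl, without overlap there and with overlap in shYthdf2. By the mean over both groups they lay near the middle of the genes tested. In shCtrl, Slit3 was at 1.19 ± 0.765, Slit1 at 0.292 ± 0.0269 and Slit2 at 0.130 ± 0.0574. Robo3 was last, at 0.0431 ± 0.0189. The order was the same in shYthdf2 libraries. By the mean over both groups, Slit2 was above 1.4% of the genes tested. With the longest transcript as the length in place of all exons, Robo1 (8.70) came before Srgap1 (7.16) and Slit2 (0.332) before Slit1 (0.305) in shCtrl.

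**Figure D1:**
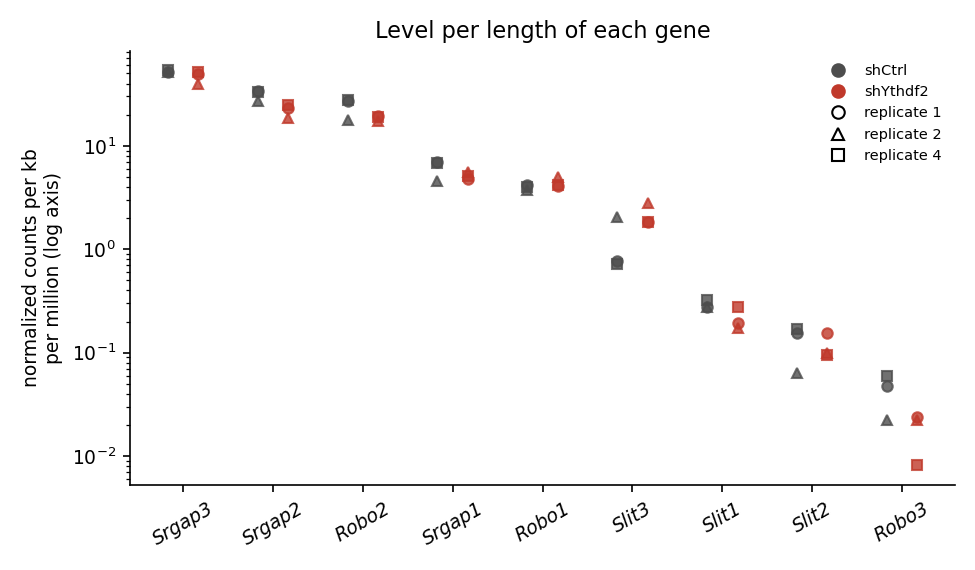
Level of each member in each library, in normalized CPM per kilobase of exon on a log axis. Points are libraries of the groups shYthdf2 and shCtrl, and the order of the genes is that of the shCtrl means, from Srgap3 (52.4) to Robo3 (0.0431).

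Among the 9 members, 8 passed the filter on low counts and were tested, 2 of them with a higher and 6 with a lower mean log2 level after YTHDF2 KD. An adjusted p under 0.05 was reached by 0 of the 8 in edgeR's quasi-likelihood test, where 0.604% of the 17214 genes tested reached it (0.244% higher and 0.360% lower in shYthdf2). An unadjusted p under 0.05 was reached by 1 member, Srgap2, with a lower level, where 20.1% of all genes did so (9.50% higher and 10.6% lower). The groups did not overlap for 3 members, Slit1, Srgap2 and Srgap3, with all shYthdf2 libraries below all shCtrl libraries. Of all genes tested 26.0% did not overlap, 12.6% with higher and 13.4% with lower levels in shYthdf2. The median log2 fold change was -0.20 over the 8 members and 0.01 over all genes tested. With DESeq2 the adjusted threshold was passed by 1 member and with limma-voom by 0, where 1320 and 24 of the 17214 genes passed it. The unadjusted threshold was passed by 2 members with each, but the share of all genes at that p is not given here for these methods. These counts therefore cannot be read as a result about the members.

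**Figure D2:**
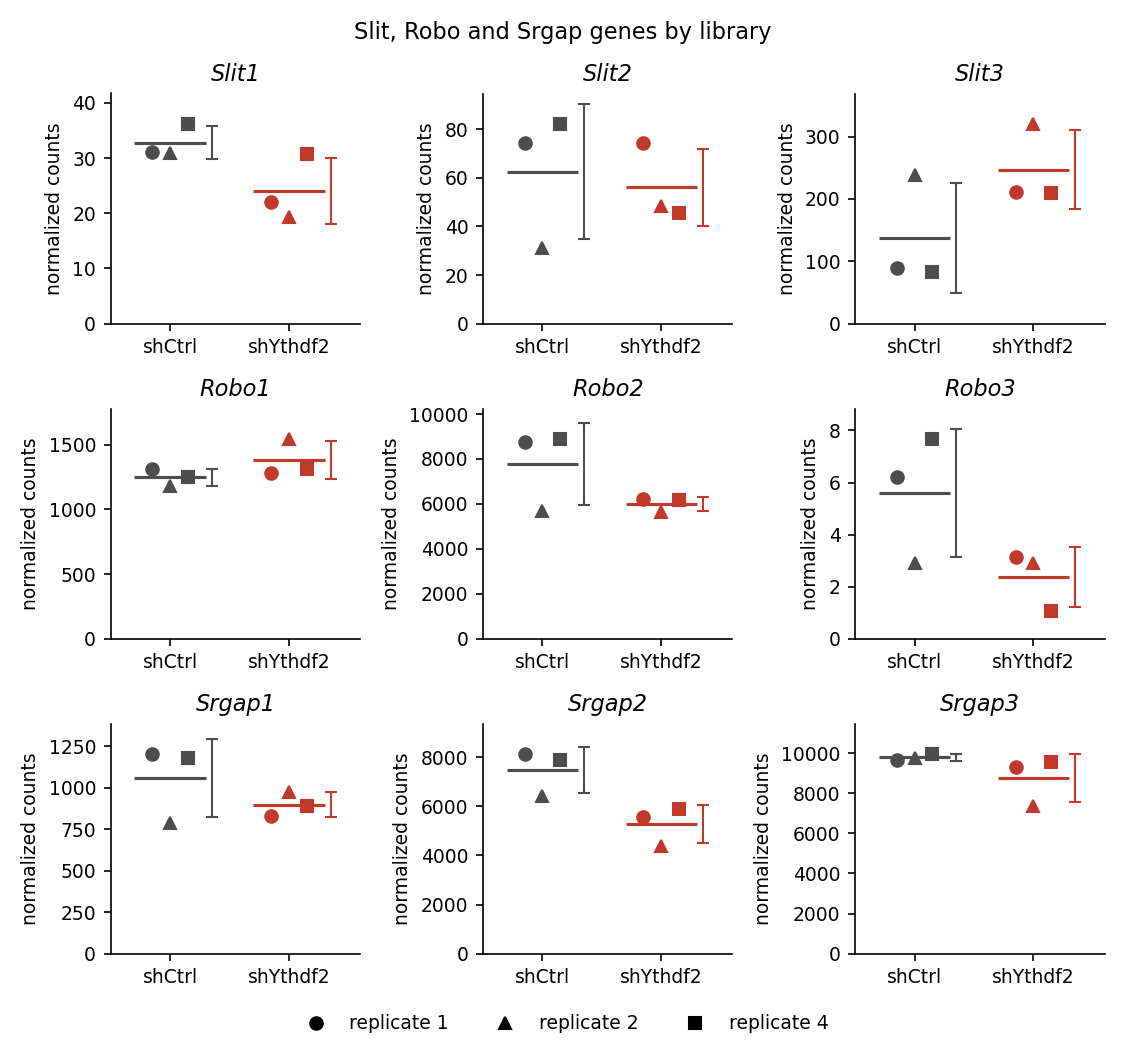
Normalized counts of each of the 9 members in the 3 shYthdf2 and the 3 shCtrl libraries, with 1 panel for each gene and the y axis from 0. Points are libraries marked by replicate number, lines are group means and error bars are SD. Srgap2, Srgap3 and Slit1 are the panels in which every shYthdf2 point is below every shCtrl point, and in Slit3 and Robo2 the shCtrl point of replicate 2 lies near the shYthdf2 points.

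Slit3 (ENSMUSG00000056427, chr11:35121224-35708507) was the ligand with the most counts. It had 211, 321 and 209 normalized counts in shYthdf2 libraries 1, 2 and 4 and 89.6, 238 and 82.4 in shCtrl libraries 1, 2 and 4. Replicate 2 was the highest in each group, and shCtrl library 2 was above shYthdf2 libraries 1 and 4, so that the groups overlapped. Slit3 had a log2 fold change of 0.85 (SE 0.43, 95% confidence interval -0.14 to 1.85, adjusted p = 0.311 in the edgeR test), with 1.23, 0.43 and 1.34 within replicates 1, 2 and 4. Without shCtrl library 2 it was 1.52 (adjusted p = 0.0109 in the edgeR test), and with replicate 2 of both groups left out it was 1.28 (adjusted p = 2.07e-06 in the edgeR test). With a batch term for replicate 2 it was 0.98 (adjusted p = 0.0229 in the edgeR test). It was 0.59 to 0.61, with adjusted p of 0.473 to 0.636 in the edgeR test, without shYthdf2 library 2 or without shCtrl library 1 or 4.

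The RNA of markers of other cell types varied between the libraries too. The summed normalized counts of 10 oligodendrocyte markers were 15892, 20829 and 16355 in shYthdf2 libraries 1, 2 and 4, and 6105, 20944 and 5859 in shCtrl. Those of 13 vascular and fibroblast markers were 3257, 8270 and 3319 in shYthdf2 and 2548, 6364 and 2539 in shCtrl. Both sums were lowest in shCtrl libraries 1 and 4, as Slit3 was. This was not particular to them. The sums of astroglia, microglia, Purkinje, GABAergic and unipolar brush cell markers were also lowest in these libraries. On the oligodendrocyte list and on the vascular and fibroblast list, 0 markers reached an adjusted p under 0.05 in the edgeR test. An unadjusted p under 0.05 was reached by 1 marker on each of these lists. Among the defining endothelial markers, Cldn5 was at 0 in 5 libraries and had 1 count in the other, while Kdr (51.6 to 128 normalized counts), Cdh5 (28.6 to 276) and Pecam1 (23.3 to 34.0) were found in every library. Kdr was the gene of this list with an unadjusted p under 0.05, with a log2 fold change of 0.82 (adjusted p = 0.119 in the edgeR test). The collagen gene Col1a1 had 1095 to 3148 normalized counts. Their part in the values of Slit3 was not tested.

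Slit1 (ENSMUSG00000025020, chr19:41600257-41743665) and Slit2 (ENSMUSG00000031558, chr5:47983138-48307733) had few counts. Slit1 had 21, 20 and 29 counts before normalization in shYthdf2 libraries 1, 2 and 4 and 35, 32 and 33 in shCtrl. The groups did not overlap, and after normalization 73.4% of the shCtrl level remained. Its log2 fold change was -0.45 (SE 0.29, 95% confidence interval -1.13 to 0.24, adjusted p = 0.438 in the edgeR test). Slit2 had 71, 50 and 43 counts in shYthdf2 and 84, 32 and 75 in shCtrl. Its lowest and highest libraries were both in shCtrl. Its log2 fold change was -0.16 (SE 0.40, adjusted p = 0.860 in the edgeR test) and turned to 0.0791 without shCtrl library 4.

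The Slit genes together had per-length levels of 2.18, 3.06 and 2.19 in shYthdf2 libraries 1, 2 and 4 and 1.21, 2.41 and 1.21 in shCtrl. Slit3 made up 83.1% to 91.1% of this sum in shYthdf2 and 59.2% to 85.9% in shCtrl, so the groups overlapped in both the sum and the share.

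Robo2 (ENSMUSG00000052516, chr16:73891839-74411825), a receptor for Slits, was the main Robo of the cultures. It had 6213, 5628 and 6157 normalized counts in shYthdf2 libraries 1, 2 and 4 and 8736, 5681 and 8910 in shCtrl. The shCtrl libraries 1 and 4 were above all others, and shCtrl library 2 was at the level of the shYthdf2 libraries. The mean in shYthdf2 was 77.1% of that in shCtrl, and the log2 fold change was -0.37 (SE 0.18, 95% confidence interval -0.79 to 0.04, adjusted p = 0.287 in the edgeR test). Within replicates 1, 2 and 4 it was -0.49, -0.01 and -0.53. Without shCtrl library 2 it was -0.56 (adjusted p = 0.00696 in the edgeR test), and with replicate 2 of both groups left out it was -0.52 (adjusted p = 5.49e-09 in the edgeR test). It was -0.29 without shCtrl library 1 and -0.27 without shCtrl library 4 (adjusted p = 0.613 and 0.607 in the edgeR test), and -0.35 with a batch term for replicate 2 (adjusted p = 0.0574 in the edgeR test).

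Robo1 (ENSMUSG00000022883, chr16:72308306-73046095), the other Slit receptor with a level above that of the ligands, had 1281, 1548 and 1316 normalized counts in shYthdf2 libraries 1, 2 and 4 and 1309, 1183 and 1251 in shCtrl. Only shYthdf2 library 2 stood clear of the others, and the groups overlapped. Robo1 had a log2 fold change of 0.15 (SE 0.11, 95% confidence interval -0.11 to 0.40, adjusted p = 0.496 in the edgeR test). Without shYthdf2 library 2 the value was 0.056, and with replicate 2 of both groups left out it was 0.015. Robo2 had 4.72, 3.53 and 4.55 times the per-length level of Robo1 in shYthdf2 libraries 1, 2 and 4 and 6.49, 4.67 and 6.92 times in shCtrl. The ratio was lowest in replicate 2 of each group, and the groups overlapped.

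Robo3 (ENSMUSG00000032128, chr9:37415669-37433246), the divergent receptor of commissural axons, had 3, 3 and 1 counts in shYthdf2 and 7, 3 and 7 in shCtrl. It was removed by the filter. Tested without the filter, its unadjusted p was 0.139 and the adjusted p = 0.572 in the edgeR test, so that no difference was detectable with so few counts. Robo4, an endothelial receptor whose gene lies next to Robo3, had at most 1 count in a library.

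Srgap2 (ENSMUSG00000026425, chr1:131285251-131527352), which shapes the membrane of migrating neurons, neurites and spines, was the member with the smallest p. It had 5570, 4389 and 5886 normalized counts in shYthdf2 libraries 1, 2 and 4 and 8155, 6433 and 7891 in shCtrl. Replicate 2 was the lowest in each group, and all shYthdf2 libraries were below all shCtrl libraries. The means were 5282 ± 789 and 7493 ± 927 (SD, n = 3 each), so 70.5% of the shCtrl level remained. The log2 fold change was -0.50 (SE 0.15, 95% confidence interval -0.85 to -0.16), and it was -0.55, -0.55 and -0.42 within replicates 1, 2 and 4. The unadjusted p was 0.0103 and the adjusted p = 0.131 in the edgeR test, which ranked Srgap2 at 1363 of 17214 genes by p. With the replicate number as a block the log2 fold change was -0.51 (SE 0.06) and the adjusted p = 0.0452 in the edgeR test. It was -0.60 without shCtrl library 2 (adjusted p = 0.0252 in the edgeR test) and -0.51 with a batch term for replicate 2 (adjusted p = 0.00553 in the edgeR test). DESeq2 gave an adjusted p = 0.0403, and over the 15 alternatives the adjusted p ran from 3.30e-08 to 0.409.

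Srgap3 (ENSMUSG00000030257, chr6:112717971-112947266), also named WRP, binds the actin regulator WAVE1. It had 9303, 7378 and 9563 normalized counts in shYthdf2 libraries 1, 2 and 4 and 9666, 9746 and 9986 in shCtrl. The groups did not overlap, but the difference within replicates 1 and 4 was -0.06 on the log2 scale, against -0.40 within replicate 2. For Srgap3 the log2 fold change was -0.16 (SE 0.12, 95% confidence interval -0.45 to 0.12, adjusted p = 0.496 in the edgeR test), and -0.057 without shYthdf2 library 2.

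Srgap1 (ENSMUSG00000020121, chr10:121780991-122047315), the srGAP first tied to Slit and Robo through Cdc42, had 829, 977 and 893 normalized counts in shYthdf2 libraries 1, 2 and 4 and 1207, 788 and 1179 in shCtrl. As with Robo2, shCtrl libraries 1 and 4 were the highest, while shCtrl library 2 was the lowest of all. For Srgap1 the log2 fold change was -0.23 (SE 0.18, adjusted p = 0.502 in the edgeR test), with 0.31 within replicate 2 and -0.54 and -0.40 within replicates 1 and 4. It was -0.41 without shCtrl library 2 (adjusted p = 0.0371 in the edgeR test), and -0.48 with replicate 2 of both groups left out (adjusted p = 4.82e-06 in the edgeR test). Without shCtrl library 1 or 4 it was -0.13 and -0.15 (adjusted p = 0.831 and 0.793 in the edgeR test), and with a batch term for replicate 2 it was -0.21 (adjusted p = 0.361 in the edgeR test). Gm48804, an annotated gene on the same strand that shares 131 exon bases with Srgap1, had at most 37 counts in a library. Gm29488, in an intron of Srgap2, had at most 15.

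The immediate-early genes, which neuronal activity induces, were as a sum, like Robo2 and Srgap1, highest in shCtrl libraries 1 and 4. The summed normalized counts of 12 of them were 7618, 4748 and 7718 in shYthdf2 libraries 1, 2 and 4, and 61630, 16951 and 60284 in shCtrl. The sum of shCtrl library 2 lay between those of shCtrl libraries 1 and 4 and the shYthdf2 libraries, whereas Srgap1 was lowest in shCtrl library 2. Of the 12 genes, 4 fell at an adjusted p under 0.05 in the edgeR test. Arc, also among the 12, ran the other way. It had 18.6 and 18.7 normalized counts in shCtrl libraries 1 and 4 against 25.5 to 43.6 in the other libraries. The summed markers of granule neurons were 189424 to 194828 in shYthdf2 and 196799 to 209517 in shCtrl, and those of granule progenitors 11630 to 11906 and 13737 to 16873. The median log2 fold change was 0.05 over the granule neuron markers and 0.37 over the 7 progenitor markers tested. Among the latter, Barhl1 (-0.61) and Ptch1 (-0.20), which have high counts, were lower. The other progenitor markers tested were higher in the mean, Atoh1 (0.78) and Mki67 (0.68) in all shYthdf2 libraries. The sums of Purkinje markers (2245 to 2453 against 1752 to 1943), GABAergic markers (7628 to 9264 against 6379 to 7016) and ependymal markers (724 to 915 against 416 to 541) were higher in all shYthdf2 libraries. The part of these sums in the values of Robo2, Srgap1 and Srgap2 was not tested.

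The srGAPs together had per-length levels of 78.0, 63.5 and 81.0 in shYthdf2 libraries 1, 2 and 4, and of 92.9, 83.7 and 93.4 in shCtrl. The groups did not overlap. The share of Srgap2 in this sum was 29.0% to 30.5% in shYthdf2 and 32.3% to 36.8% in shCtrl. Srgap3 had 2.13, 2.14 and 2.07 times the per-length level of Srgap2 in shYthdf2 libraries 1, 2 and 4, against 1.51, 1.93 and 1.61 times in shCtrl.

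**Figure D3:**
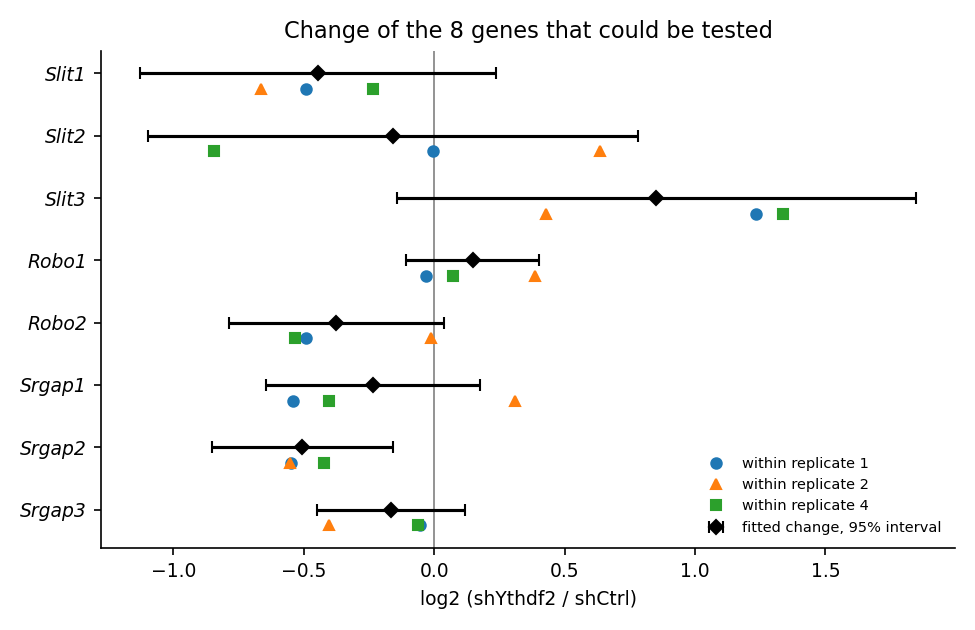
The log2 fold change of the 8 members tested (shYthdf2 minus shCtrl) with its 95% confidence interval, and the difference within each replicate number as points. The interval of Srgap2, -0.85 to -0.16, is the only one of the 8 that does not include 0, and the points of Slit2, Robo1 and Srgap1 lie on both sides of 0.

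**Figure D4:**
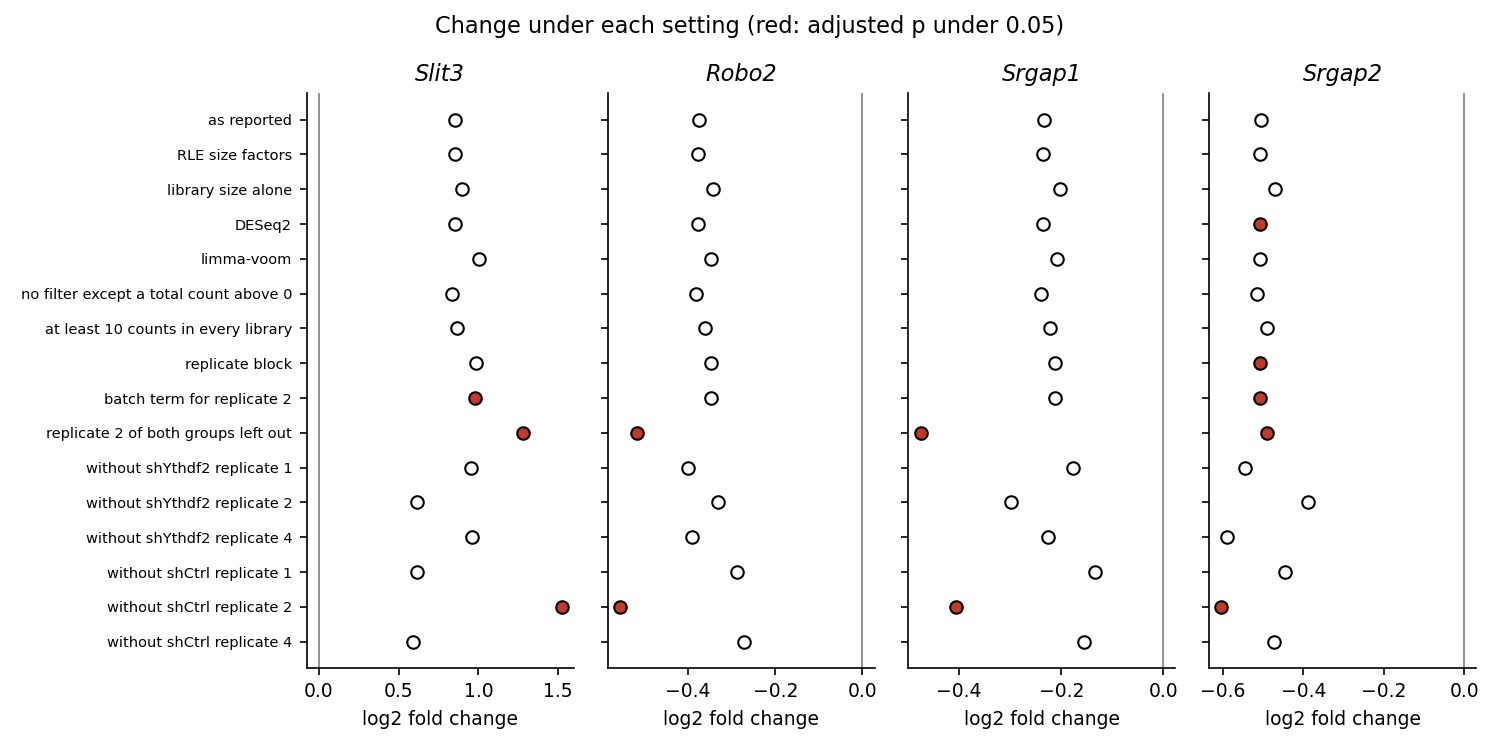
The log2 fold change (shYthdf2 minus shCtrl) of Slit3, Robo2, Srgap1 and Srgap2 under the reported test and the 15 alternatives, with 1 panel for each gene, its own x axis and values at an adjusted p under 0.05 in red. Srgap2 is between -0.60 and -0.39 throughout, and the values of Slit3 spread from 0.59 to 1.52.

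The genes whose pattern was most like that of Srgap2 were found by Pearson's r of log2 normalized counts over the 6 libraries, among 12812 genes with a mean of at least 50 normalized counts. They were Tab2 (0.9986), Thrap3 (0.9983), Cdh4 (0.9980), Pacs2 (0.9978) and Brap (0.9972). With 6 libraries that include the step between replicate 2 and the others, 213 genes had an r above 0.95.

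Other genes that act with Slits and Robos were taken from a list of 43, of which 40 were tested. Of these 18 were higher and 22 lower after YTHDF2 KD, and an unadjusted p under 0.05 was reached by 11 (27.5%, against 20.1% of all genes tested), of which 8 were lower. The median log2 fold change was -0.04. The adjusted threshold was passed by 1 gene, the kinase gene Abl1, in the edgeR test.

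Among the 21 genes of signalling inside the cell, Abl1, whose kinase acts on Robo and the cytoskeleton, had 1923, 1913 and 1886 normalized counts in shYthdf2 libraries 1, 2 and 4 and 3198, 2708 and 3039 in shCtrl. Each shYthdf2 library was below each shCtrl library. Abl1 fell by 0.64 on the log2 scale (SE 0.10, adjusted p = 0.0496 in the edgeR test), and it was past the threshold in 9 of the 15 alternatives. Without shYthdf2 library 1 or 4, or without shCtrl library 1 or 4, its adjusted p was 0.241 to 0.286 in the edgeR test. For Vasp, an actin regulator of the Ena/VASP family, the log2 fold change was -0.50 (adjusted p = 0.0872 in the edgeR test). The adaptor Nck2 had -0.42 (adjusted p = 0.102) and Wasf1, which encodes WAVE1, had 0.27 (adjusted p = 0.236) in the same test.

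Slit binds heparan sulfate, and 7 genes of matrix binding and heparan sulfate synthesis were tested. An unadjusted p under 0.05 was reached by 4 of them, all lower (10.6% of all genes tested were), and the adjusted threshold by 0 in the edgeR test. Gpc1, a heparan sulfate proteoglycan that binds Slit, had 1137, 1557 and 1184 normalized counts in shYthdf2 libraries 1, 2 and 4 and 2022, 1726 and 1908 in shCtrl. Its groups did not overlap, and its log2 fold change was -0.54 (adjusted p = 0.107 in the edgeR test). The enzymes of heparan sulfate synthesis Ext1 (-0.40), Ndst1 (-0.38) and Hs6st1 (-0.30) had adjusted p = 0.149, 0.176 and 0.226 in that test.

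The 6 genes of coreceptors and other ligands all had higher levels in shYthdf2, with a median log2 fold change of 0.45, and 0 of them passed the adjusted threshold in the edgeR test while 2 had an unadjusted p under 0.05, where 9.50% of all genes tested were higher at that p. For Nell2, a secreted ligand of Robo3, the log2 fold change was 0.54 (adjusted p = 0.153 in the edgeR test), and with the replicate block it was 0.55 (adjusted p = 0.0498 in the edgeR test). Flrt3, a membrane protein that binds Robo1, had 0.55 (adjusted p = 0.156 in the edgeR test). Of 6 genes of Robo trafficking, 1 (16.7%, against 20.1% of all genes tested) had an unadjusted p under 0.05, Ndfip2, an adaptor of ubiquitin ligases, with -0.37 (adjusted p = 0.122 in the edgeR test).

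**Figure D5:**
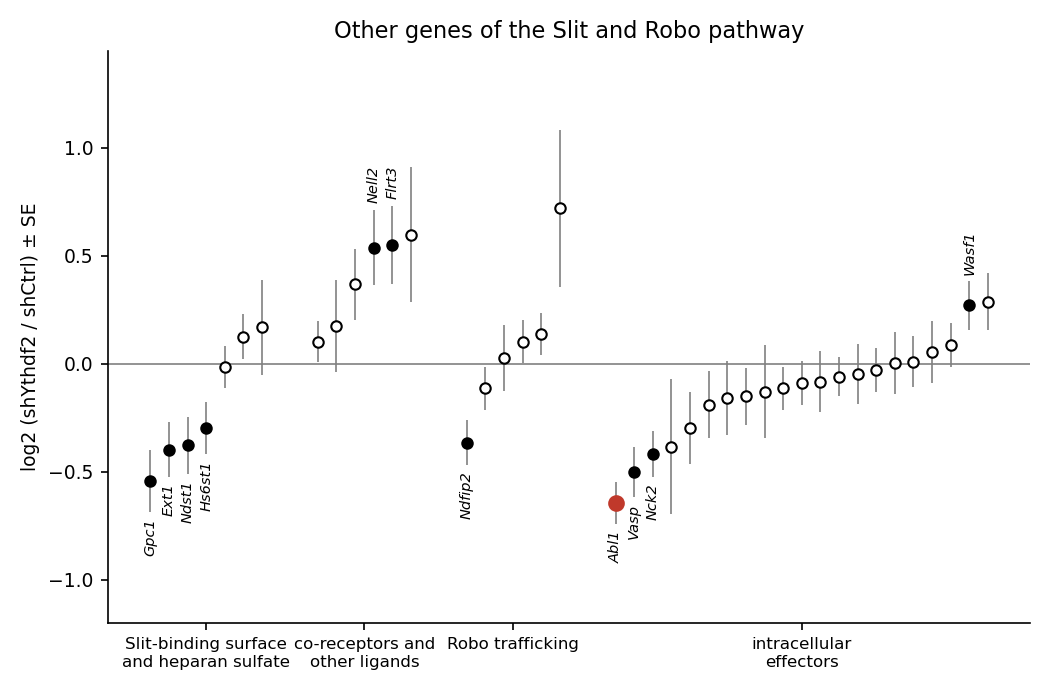
The log2 fold change of the 40 other pathway genes tested (shYthdf2 minus shCtrl), grouped by role, with bars for the SE. Filled points have an unadjusted p under 0.05, and Abl1, in red, is the only 1 with an adjusted p under 0.05.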

How the data were processed

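By the study's methods, the authors removed low-quality reads, used HISAT and TopHat2 to place the others on GRCm38, and counted them per gene with HTSeq. The processing notes in the labels name Bowtie 0.12.2 and mm9 instead. The authors deposited whole-number read counts per gene, without normalization, in 1 table with a column for each library. Whether the libraries kept the strand is not given in the sources used here. The study calls the libraries of a group biological replicates, and the labels do not say which cultures they came from, so that p-values measure the spread between these libraries only.

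The tests were run in R 4.3.3 with edgeR 4.0.16. The filter of filterByExpr (minimum count 10, minimum total 15) kept 17214 genes with 99.8% of the counts. Library sizes were scaled by TMM, the quasi-likelihood test was applied, and p-values were adjusted over all genes tested by the Benjamini-Hochberg method with a threshold of 0.05. For differences within replicates, 0.5 was added to normalized counts before log2. The libraries held 17246821 to 21546595 counts, of which Slit1, Slit2 and Robo3 had at most 35, 84 and 7 in a library.

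Libraries with the same number deviated together from their group means (r = 0.252, 0.360 and 0.322 over the genes for replicates 1, 2 and 4). Replicate 2 stood apart in both groups, which can give such values, and no r between different numbers was computed. The values therefore cannot show that replicates 1 and 4 are paired. By chi-square per degree of freedom, shYthdf2 library 1 was 53.3 from shCtrl library 1 and 47.1 from shCtrl library 4. For shYthdf2 library 4 these were 52.0 and 43.7, and shYthdf2 library 2 was nearest to shCtrl library 2, at 22.1. The pairing used for the replicate block and for differences within replicates comes from the numbers in the library names. The labels do not say what libraries of a number share.

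Alternatives tried were library size alone or RLE size factors, DESeq2 1.42.0, limma-voom (limma 3.58.1), a filter of any count above 0 or of 10 counts per library, the replicate number as a block (the replicate block), a batch term for replicate 2, replicate 2 of both groups left out, and each library left out in turn. The 9 members, the lists and the alternatives were chosen with earlier results of these data known. Named genes were the members, Ythdf2, the pathway genes with an unadjusted p under 0.05 and Robo4, the genes overlapping a member with over 10 counts in a library, the 5 genes most like the member with the smallest p, and markers. Pathway genes were listed from their known roles. Transcripts and exons were those of GENCODE M21 on GRCm38, and mature miRNA sequences those of RefSeq on GRCm38. They were searched with Python 3.11.15.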

Additional observations from a re-analysis of the deposited data

How the results depend on the processing

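The direction of 7 of the 8 members tested was kept under all 15 alternatives, and Slit2 had -0.48 to 0.0791 with 1 library left out, the latter without shCtrl replicate 4. The number of members past the adjusted threshold, 0 in the reported test, was 1 with DESeq2 and with the replicate block, 2 with the batch term for replicate 2, 4 with replicate 2 of both groups left out, and 0 to 4 with 1 library left out. The 4 were reached without shCtrl replicate 2, where 3239 of 17734 genes tested passed that threshold. It was passed by 9186 of 17422 genes tested with replicate 2 of both groups left out. Of 17214 genes tested it was passed by 3799 with the batch term, 1320 with DESeq2 and 232 with the replicate block. The number of members at an unadjusted p under 0.05, 1 in the reported test, was 2 with DESeq2 and limma-voom, 3 without the filter, with the replicate block and with the batch term, 4 with replicate 2 left out, and 1 to 4 with 1 library left out. The share of all genes at that p is not given here for any alternative. These counts, and those of other pathway genes below, therefore have no background beside them.

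The number of all genes past the adjusted threshold, 104 in the reported test, was 1320 with DESeq2, 24 with limma-voom, 639 without the filter, 232 with the replicate block, 3799 with the batch term, 9186 with replicate 2 of both groups left out, and 0 to 3239 with 1 library left out. It was 0 without replicate 1 or 4 of either group, 829 without shYthdf2 replicate 2 and 3239 without shCtrl replicate 2. With replicate 2 left out, 2 libraries that lie close together remain in each group. The number of other pathway genes past it, 1 in the reported test, was 0 with library size alone and with limma-voom, 4 with DESeq2, 2 with the replicate block, 11 with the batch term, 24 with replicate 2 left out, and 0 to 14 with 1 library left out. At an unadjusted p under 0.05 there were 20 with the batch term, 25 with replicate 2 left out and 5 to 18 with 1 library left out, against 11. The replicate block changed the call of Srgap2 and, among the pathway genes named, of Nell2, and no other call of a member or named pathway gene. The cause of these changes was not tested. Slit1 and Robo3 had at most 35 and 7 counts in a library, which limits their precision.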
